A study of Mus musculus with 12 samples.

Results

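The response of female osteoclast precursors to RANKL was measured by RNA sequencing in 6 of the 12 libraries of the series, 3 of cultures given M-CSF with RANKL and 3 of cultures given M-CSF alone. The 6 libraries were taken by their labelled sex and treatment, and no measured value entered the choice. The precursors were sorted from mouse bone marrow as cells that lack CD45R and CD3, carry little or no CD11b and are positive for CD115, the M-CSF receptor. The animals were labelled female Runx1 fl/+, that is, with 1 of the 2 Runx1 alleles flanked by loxP sites. The titles also tag them as WT, no Cre is named for any library, and all 12 libraries share this genotype. RANKL was given at 30 ng/ml, the dose of M-CSF is not stated, and the labels give no age. The titles and the treatment protocol put the culture at 3 days, while the growth protocol gives a longer time. The labels do not say whether the 3 replicates of a group came from separate mice, and the p-values therefore cover only the variation among these libraries, which may be technical. The 3 M-CSF+RANKL libraries held 14303174 to 15246430 counts and the 3 M-CSF libraries 10646697 to 12970278.

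RANKL, a TNF family cytokine made by bone-forming and immune cells, binds its receptor RANK on cells of the monocyte and macrophage line that M-CSF keeps alive. RANK works through TRAF adaptors, NF-kB and AP-1, and these converge with calcium signals from ITAM adaptors on NFATc1, the factor that drives osteoclast genes. The cells then fuse into osteoclasts, which seal off a patch of bone, pump acid onto it and digest its matrix. A culture with M-CSF alone yields macrophages, so the contrast sets cells on the way to osteoclasts against macrophages grown from the same kind of precursor.

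The markers followed the labels. All 10 genes of an osteoclast marker list rose, with summed levels of 35776, 35371 and 29358 CPM (counts relative to the scaled size of a library) in the M-CSF+RANKL libraries and 74.8, 76.6 and 74.5 CPM in the M-CSF libraries. The macrophage markers summed to 2872, 3218 and 2993 CPM with RANKL and to 6530, 6127 and 6788 CPM without it. 8 of those 10 genes fell, while Cd68 and Csf1r, which encodes the M-CSF receptor, were not called. Of other cell types, the neutrophil list was present at 231, 146 and 403 CPM with RANKL and 411, 284 and 543 CPM without it, and 1 of its 11 tested genes was called. The B cell list, nearly all of it Ighm, summed to 20.9, 19.8 and 25.8 CPM with RANKL, against 255, 136 and 177 CPM with M-CSF alone. The megakaryocyte list, mostly Pf4, which macrophages can also make, had 12.9, 13.4 and 23.7 CPM with RANKL and 221, 272 and 492 CPM without it. No erythroid marker passed the filter on low counts, and the 1 tested T and NK cell gene was not called. The stromal list summed to 8.06, 8.19 and 11.8 CPM with RANKL and 3.10, 3.29 and 5.97 CPM without it. Its 1 tested gene rose, and its member Col1a2 had no count in any of the 6 libraries. The mast cell and basophil list summed to 10.2, 9.12 and 9.77 CPM with RANKL and 3.85, 2.68 and 2.90 CPM without it. There 2 of 3 tested genes rose. Of dendritic cell genes 2 of 9 tested rose and 3 fell, and of endothelial genes 1 of 5 rose and 2 fell. The part of these other cells in the gene results was not tested. In bulk RNA, fewer cells of a type and less RNA per cell cannot be told apart.

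More tested genes differed between the treatments than not. Of 13236 genes tested, 6875 (51.9%) differed between the treatments by edgeR's quasi-likelihood test at an adjusted p below 0.05. Of all tested genes, 26.8% rose and 25.1% fell, which is the background against which each gene group below is read, and rose and fell are used only of genes that passed. At 2-fold or more, 1892 genes (14.3%) rose and 1550 (11.7%) fell. The 3 libraries of one treatment all lay above those of the other for 7720 genes (58.3%), and 6693 of these were called. Nearly all called genes thus had no overlap. Where called genes below are said not to overlap, this adds little to the call itself. The median log2 fold change over all tested genes was 0.03, and the median standard error (SE) of a fold change was 0.17. The fit behind these values did not use the replicate number as a block. With that block 8014 genes were called.

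The rises reached further than the falls. A fitted fold change of a gene with few or no counts in one group depends on the prior count of the fit, so for the sizes each group with 3 counts or fewer over its libraries was set to 3 counts. On that scale 1028 genes rose and 569 fell by at least 4-fold. At 16-fold or more the numbers were 399 and 88, and at 64-fold or more 134 and 14. Of the genes that rose, 358 had at most 3 counts over the M-CSF libraries and 182 had none. Of the genes that fell, 38 had at most 3 counts over the M-CSF+RANKL libraries and 5 had none.

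**Figure D1:**
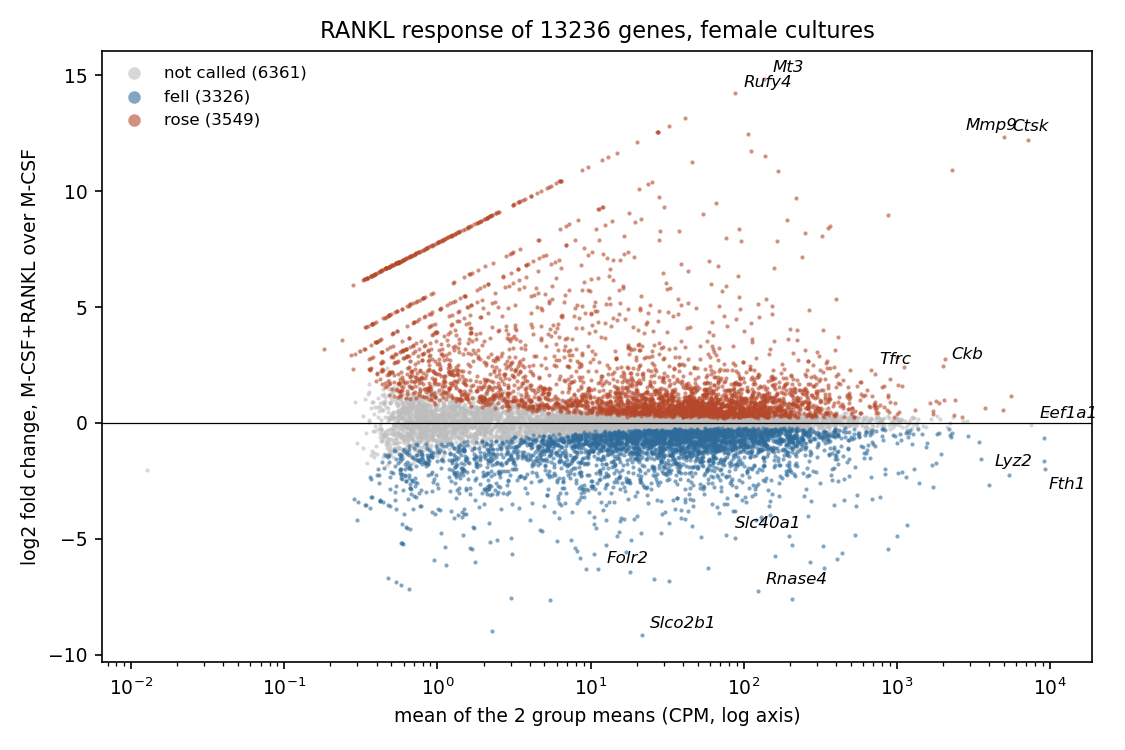
Fitted log2 fold change (M-CSF+RANKL over M-CSF) of each tested gene against the mean of its 2 group means in CPM on a log axis, in the female cultures. Called rises (3549) are red, called falls (3326) blue and uncalled genes (6361) grey; the straight lines of points at the upper left are genes with no or few M-CSF counts, whose height depends on the prior count.

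**Figure D2:**
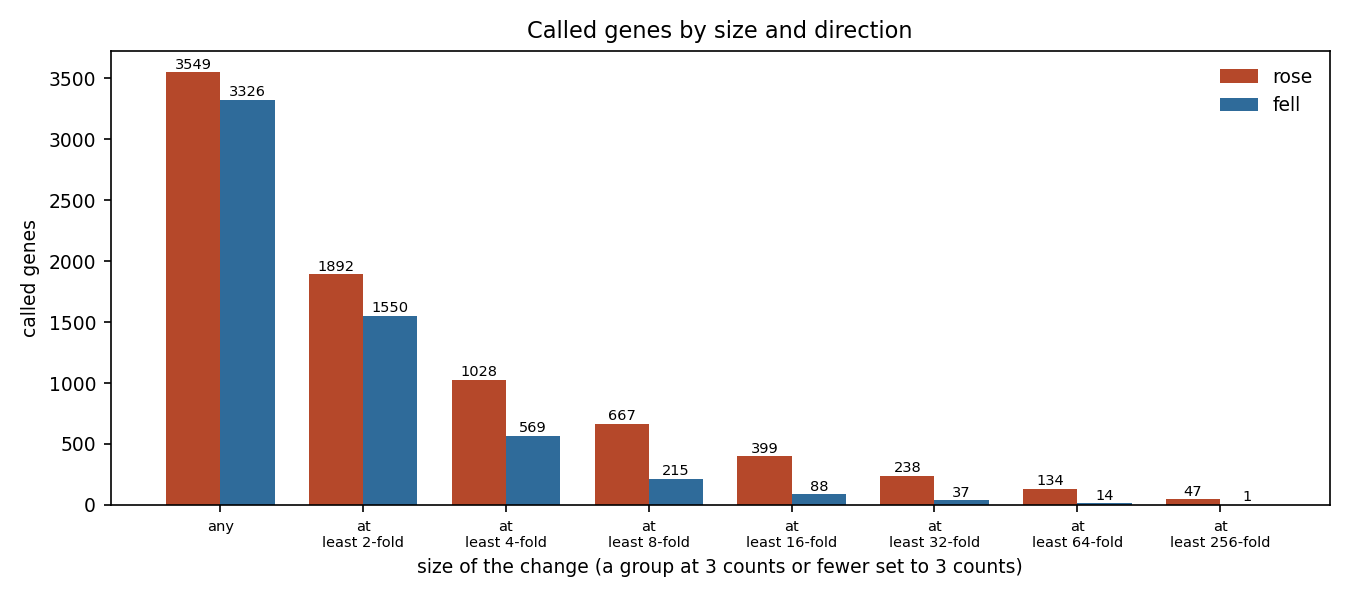
Number of called genes that rose (red) and fell (blue) by at least the fold on the horizontal axis, with a group at 3 counts or fewer set to 3 counts. The bars are close for any size (3549 and 3326) and part with rising size, to 47 and 1 at 256-fold.

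Measured as a share of all counts, the turnover was large. Genes that rose at least 2-fold took up 18.7 ± 0.861% of the counts of M-CSF+RANKL libraries and 4.44 ± 0.0439% of those of M-CSF libraries (SD, n = 3 each). Genes that fell at least 2-fold took up 5.56 ± 0.502% with RANKL and 20.2 ± 0.463% without it. Genes that were not called made up 40.8 ± 0.328% with RANKL and 39.9 ± 0.340% with M-CSF alone. The shares of the 3 libraries of a group lay close together. The groups overlapped in none of these classes, with the smallest gap for the uncalled genes. The classes were formed from the calls in these same libraries, so the separation of the called classes follows from their definition.

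**Figure D3:**
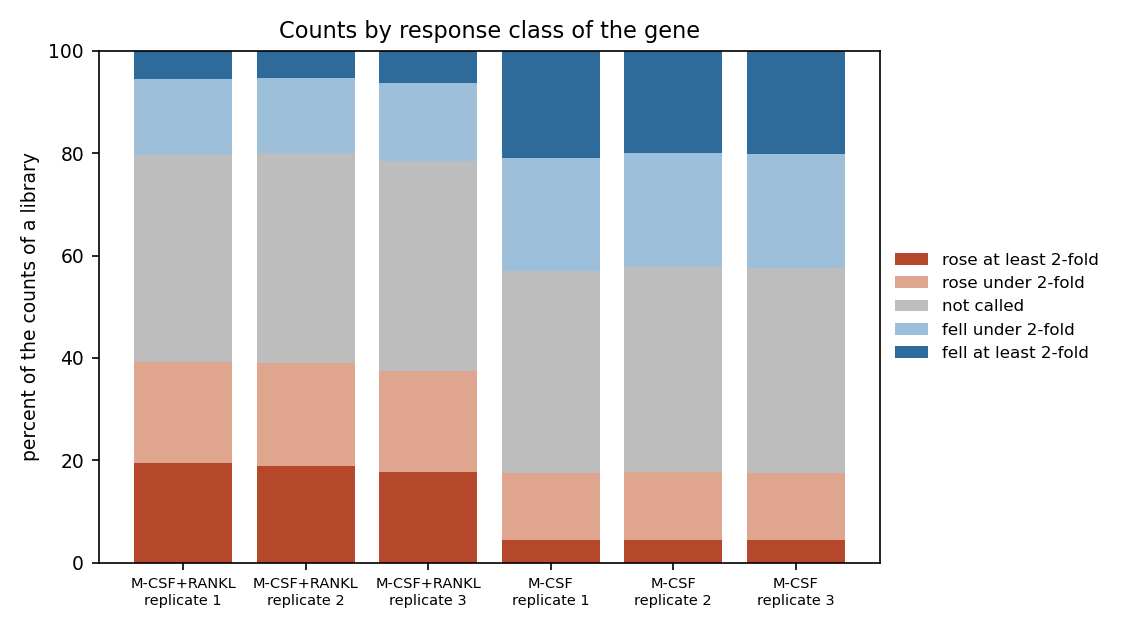
Percent of the counts of each of the 6 female libraries that came from genes in 5 response classes, with the M-CSF+RANKL libraries at the left. The class that rose at least 2-fold holds 17.7 to 19.4% with RANKL and 4.41 to 4.49% without it, and the class that fell at least 2-fold holds 5.21 to 6.14% and 19.9 to 20.8%.

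The largest gains in counts went to osteoclast enzymes. Ctsk, the collagen-cleaving cathepsin K of osteoclasts, had 11318, 11053 and 7940.1 CPM with M-CSF+RANKL, against 1.78, 3.06 and 0.905 CPM with M-CSF. Mmp9, a gelatinase, had 15558, 14339 and 13298 CPM with RANKL, against 0.938, 1.45 and 6.88 CPM without it. Acp5, which encodes the acid phosphatase TRAP, had 4512, 5397 and 3949 CPM with RANKL, against 3.002, 2.52 and 1.54 CPM without it. All 3 were among the genes of highest count in every M-CSF+RANKL library and stood at a few CPM in every M-CSF library. Ckb, a cytosolic creatine kinase that passes phosphate between creatine and ATP, was already well expressed without RANKL. It had 3356, 3744 and 3085 CPM with M-CSF+RANKL, against 587, 681 and 571 CPM with M-CSF, a log2 fold change of 2.47 ± 0.13 (SE, adjusted p = 5.02e-09). Atp6v1b2, a subunit of the proton pump, rose by 2.76 ± 0.13 in log2, and Vim, the intermediate filament vimentin, by 0.56 ± 0.13.

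The largest losses in counts came from genes of iron storage, lysosomes, secreted proteins and actin. Fth1, the ferritin heavy chain that stores iron, had 3007, 4546 and 3772 CPM with M-CSF+RANKL, against 14508, 15331 and 14469.5 CPM with M-CSF. Lyz2, the lysozyme of myeloid cells, had 4044, 3823 and 5458 CPM with RANKL, against 14592, 12750.2 and 14716 CPM without it. Ctsb and Ctsl, lysosomal cathepsins, fell by 2.26 and 2.59 in log2, against the rise of Ctsk. The highest RANKL library lay below the lowest M-CSF library for each of them, as the rule for the largest losses required. Spp1, the secreted bone matrix protein osteopontin, which osteoclasts are known to make, had 995, 949.6 and 1321 CPM with RANKL, against 8146, 6425 and 6315 CPM without it and a log2 fold change of -2.68 ± 0.20. Lgals1, a secreted galectin, had 319, 476 and 539 CPM with RANKL, against 2737, 2919.6 and 3379 CPM without it. Dab2, an endocytic adaptor, had 72.6, 70.4 and 170.1 CPM with RANKL, against 2258, 2117 and 2323 CPM without it, with the highest of the RANKL values in replicate 3. Actb and Tmsb4x, which encode beta-actin and the actin-binding thymosin beta 4, had log2 fold changes of -0.65 ± 0.11 and -1.57 ± 0.15.

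Some genes of high count stayed level. For 477 genes the 95% interval of the log2 fold change lay within ±0.3. The highest by counts was Eef1a1, a translation elongation factor, with 7225, 7537 and 7242 CPM with M-CSF+RANKL, against 7673, 7213 and 8308 CPM with M-CSF. Its groups overlapped, and its log2 fold change was -0.08 ± 0.10. Lcp1, the leukocyte actin-bundling protein plastin, had 3124, 2944 and 2815 CPM with RANKL, against 2735, 2734 and 2913 CPM without it. Also within these bounds were Calr, a chaperone of the endoplasmic reticulum, at -0.01, Msn, which ties actin to the membrane, at -0.06, and Itgb2, the beta chain of the leukocyte integrins, at 0.00.

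**Figure D4:**
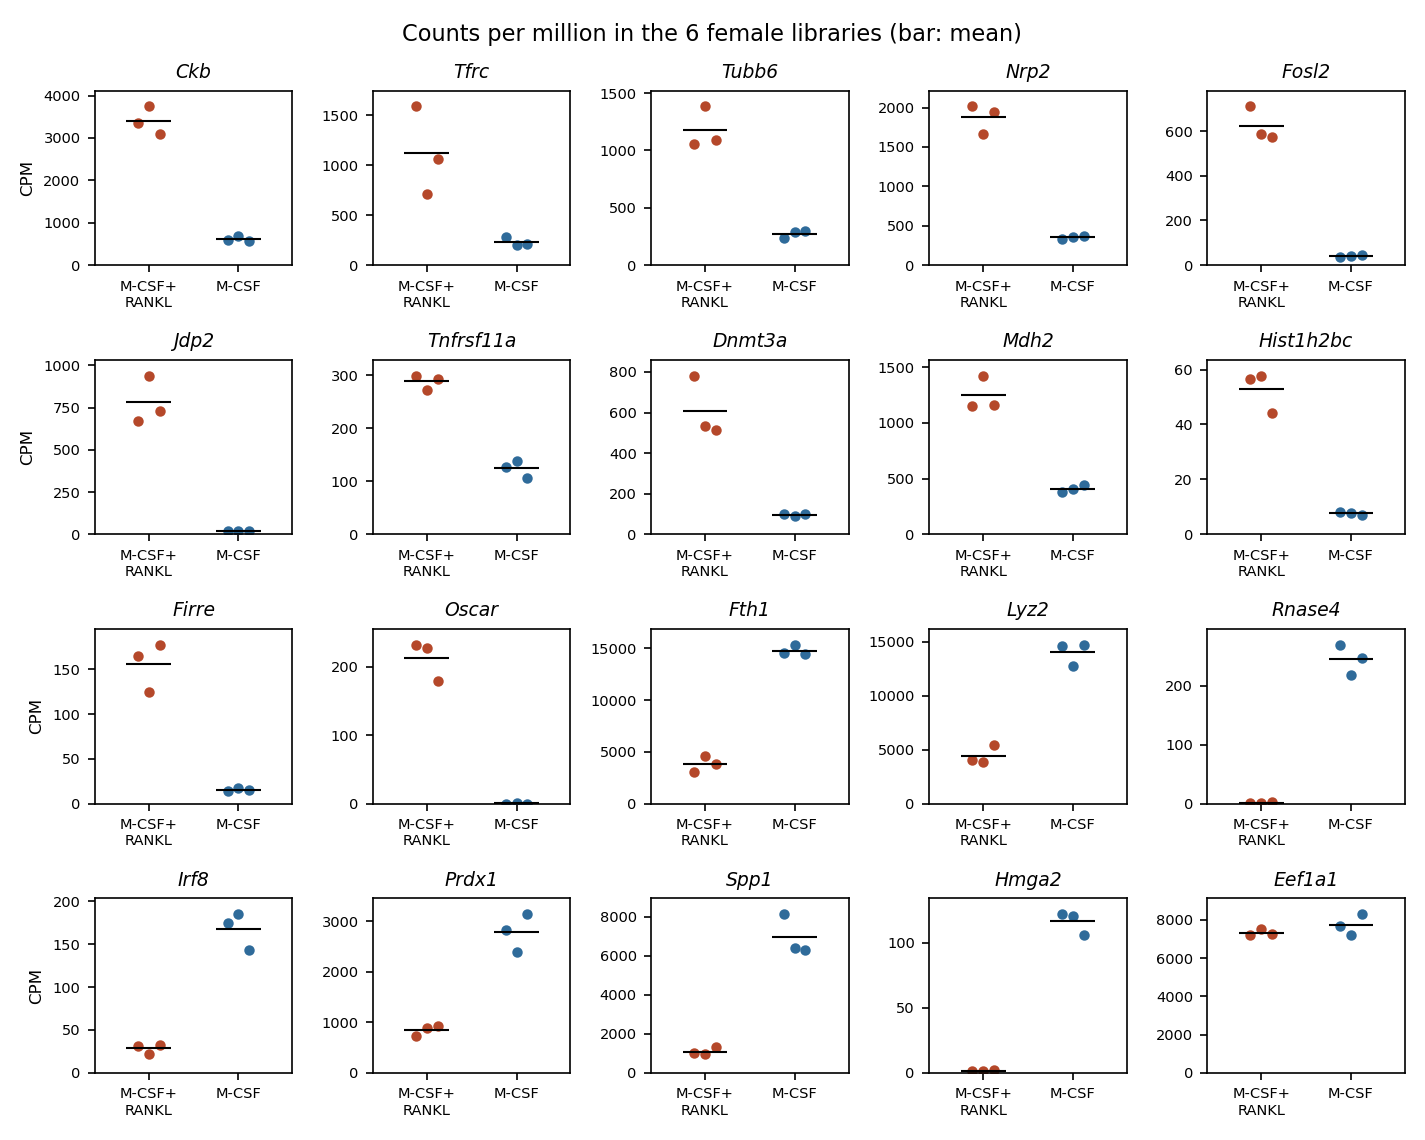
CPM of 20 genes named in the text, 1 panel per gene with its own axis from 0, in the 3 M-CSF+RANKL libraries (red, left) and the 3 M-CSF libraries (blue, right); bars are means. The groups overlap for Eef1a1 alone among the 20 panels, and some of the others were chosen by a rule that required no overlap.

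A set of 75 genes was near silent with M-CSF and clearly expressed with RANKL, with at most 3 counts over the 3 M-CSF libraries and at least 5 CPM in each M-CSF+RANKL library. Of these, 71 were protein-coding, 29 had no count at all in M-CSF, and 53 also had at most 3 counts over the male M-CSF libraries. With these values choosing the genes, they are given as a description and without a test. The highest by CPM with RANKL was Cd200, a surface protein that signals to myeloid cells through its receptor, at 271, 306 and 248 CPM and 3 counts over the M-CSF libraries. Mt3, a metallothionein best known from neurons, had 249.9, 327 and 237 CPM with RANKL and no count with M-CSF, which makes it at least 3153-fold higher when the M-CSF libraries are set to 3 counts. Rufy4, a RUN and FYVE domain protein linked to autophagy, was at least 2052-fold higher by the same measure.

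Among the switched-on genes, Oscar, an ITAM-coupled receptor for collagen on osteoclasts, had 232, 228 and 179.7 CPM with RANKL and 1 count with M-CSF, a ratio of 7442 (95% counting interval 1335 to 293990.0). Calcr, the receptor for the hormone calcitonin that halts bone resorption, had 61.6, 41.5 and 60.1 CPM with RANKL and no count with M-CSF. Mst1r, a receptor tyrosine kinase, had 221, 233 and 215 CPM, and F2r, a receptor cleaved by thrombin, had 93.4, 90.02 and 91.3 CPM. The step from the M-CSF libraries was required by the rule for this set. The spread among the 3 RANKL libraries was small beside that step in each of these genes. Sema7a, a membrane-bound semaphorin, had 55.6, 58.2 and 55.2 CPM and Steap4, a metalloreductase that readies iron and copper for uptake, had 62.5, 54.5 and 48.8 CPM. Ephx2, a soluble epoxide hydrolase, and Zfp462, a zinc finger protein, averaged 50.7 and 83.2 CPM with RANKL. Genes better known from nerve cells were among them, such as Htr1b, a serotonin receptor, at 29.1, 30.4 and 29.3 CPM and Slc6a4, the serotonin transporter, at 8.85, 17.98 and 14.6 CPM. The last of these, and Lif and Sphk1, were picked out after their values were seen. Lif, a cytokine of the interleukin 6 family, had 29.8, 26.8 and 26.1 CPM, and Sphk1, the kinase that makes sphingosine 1-phosphate, had 19.9, 25.2 and 22.2 CPM.

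The promoters of these genes were read from the RefSeq annotation of GRCm38.p6, in windows of 300 bases from 250 before to 50 after each transcription start, and 59 of the 75 genes matched with 83 windows. They are shown because AP-1 and NFAT factors act at osteoclast genes. The AP-1 element TGANTCA was present in 19.3% of these windows, against 8.2% of windows of genes that rose at least 2-fold, 7.1% of those that fell at least 2-fold, 5.35% of all tested genes and 7.81% of all windows of the annotation. The NFAT core GGAAA, searched on both strands like the others, was in 63.9% of the windows of switched-on genes, against 59.2% of those of tested genes and 61.3% of all windows. The E-box CACGTG of MITF and TFE factors was in 3.61% of the windows of switched-on genes and in 9.97% of those of tested genes. Its share of all windows was 7.15%. Another MITF motif, CATGTG, went the other way, with 16.9% of switched-on, 8.73% of tested-gene and 14.2% of all windows. CACGTG contains the dinucleotide CG, whose median number per window was 11 in switched-on genes, 20 in tested genes and 7 in all windows. These values are descriptions of letters in a window and were not tested. The windows of 4 genes with an AP-1 element and of Oscar, which had none, follow in the direction of transcription, with the AP-1 element and each NFAT core (GGAAA or its reverse complement TTTCC) in capitals. The AP-1 element starts at position -41 from the start of Rufy4 (chr1:74125291-74125590 on the plus strand), -58 in Capn6 (chrX:143827363-143827662 on the minus strand), -204 in F2r (chr13:95618417-95618716 on the minus strand) and -228 in Lif (chr11:4257318-4257617 on the plus strand). Oscar lies at chr7:3616108-3616407 on the minus strand.
Rufy4: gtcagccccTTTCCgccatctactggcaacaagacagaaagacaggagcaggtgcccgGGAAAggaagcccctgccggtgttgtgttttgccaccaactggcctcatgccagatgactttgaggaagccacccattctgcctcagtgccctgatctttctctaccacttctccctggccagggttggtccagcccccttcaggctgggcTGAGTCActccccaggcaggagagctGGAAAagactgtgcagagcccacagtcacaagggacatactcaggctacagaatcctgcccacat
Capn6: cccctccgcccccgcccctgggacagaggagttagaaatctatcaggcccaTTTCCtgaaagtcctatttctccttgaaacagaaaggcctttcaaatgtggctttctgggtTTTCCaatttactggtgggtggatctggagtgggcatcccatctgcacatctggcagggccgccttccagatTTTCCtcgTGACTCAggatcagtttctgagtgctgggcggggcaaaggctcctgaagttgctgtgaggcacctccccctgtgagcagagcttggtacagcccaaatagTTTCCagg
F2r: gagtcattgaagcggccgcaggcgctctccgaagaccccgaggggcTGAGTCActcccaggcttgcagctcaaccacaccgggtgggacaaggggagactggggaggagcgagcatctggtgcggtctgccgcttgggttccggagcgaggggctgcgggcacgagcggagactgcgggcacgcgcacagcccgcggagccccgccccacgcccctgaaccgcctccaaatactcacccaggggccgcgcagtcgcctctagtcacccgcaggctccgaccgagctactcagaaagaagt
Lif: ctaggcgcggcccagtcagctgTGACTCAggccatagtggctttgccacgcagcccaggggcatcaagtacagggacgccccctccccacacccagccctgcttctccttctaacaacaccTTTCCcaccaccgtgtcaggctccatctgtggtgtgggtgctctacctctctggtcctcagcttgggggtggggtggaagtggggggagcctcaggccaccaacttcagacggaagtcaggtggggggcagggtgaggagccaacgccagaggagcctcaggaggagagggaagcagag
Oscar: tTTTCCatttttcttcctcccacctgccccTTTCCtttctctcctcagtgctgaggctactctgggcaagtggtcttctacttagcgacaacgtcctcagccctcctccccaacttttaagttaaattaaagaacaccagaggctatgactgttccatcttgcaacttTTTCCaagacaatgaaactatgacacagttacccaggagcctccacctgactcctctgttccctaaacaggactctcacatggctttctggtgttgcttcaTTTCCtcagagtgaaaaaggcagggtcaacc
Among these 5 windows, that of F2r holds an AP-1 element and no NFAT core, and that of Oscar holds NFAT cores and no AP-1 element. Capn6, a calpain without protease activity, had 19.2, 28.2 and 23.7 CPM with RANKL and no count with M-CSF.

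At the other end, 2 genes met the reverse rule, with at most 3 counts over the M-CSF+RANKL libraries and at least 5 CPM in each M-CSF library. Slco2b1, an organic anion transporter, had 3 counts with RANKL and 1469 with M-CSF, a ratio of M-CSF over M-CSF+RANKL of 628 (95% counting interval 214 to 3047). Cnrip1, a protein that binds a cannabinoid receptor, had 2 and 372 counts, and it overlaps Plek on the opposite strand by 199 exon bases, so that its counts are uncertain where strand was not used. The largest falls beyond these included secreted factors. Ccl7, a chemokine that draws monocytes, had 0.661, 1.53 and 4.09 CPM with RANKL, against 328, 445 and 453 CPM without it. Igf1, insulin-like growth factor 1, had 10.2, 6.72 and 7.97 CPM with RANKL, against 733, 498 and 376 CPM without it. Ccl2, another monocyte chemokine, fell by 5.61 in log2. The values with RANKL lay below all values with M-CSF for each of these, as the rule for the largest falls required.

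Among the largest falls, Mrc1, the mannose receptor CD206, had 12.1, 9.12 and 19.9 CPM with M-CSF+RANKL, against 801, 461 and 1122 CPM with M-CSF. Folr2, a folate receptor of resident macrophages, had 0.3303, 0.266 and 0.208 CPM with RANKL, against 28.3, 24.9 and 13.1 CPM without it. Fcrls, an Fc receptor-like protein of microglia and other macrophages, had 0.198, 0.266 and 0.970 CPM with RANKL, against 33.8, 38.7 and 82.4 CPM without it. No RANKL library reached the lowest M-CSF library in any of them, as the rule for the largest falls required. Pmp22, a membrane protein known from myelin, had 6.34, 7.39 and 12.1 CPM with RANKL, against 754, 589.6 and 643 CPM without it, and Nes, the intermediate filament nestin, 0.462, 0.399 and 0.831 CPM with RANKL, against 47.3, 76.5 and 68.6 CPM without it. Hmga2, a chromatin protein of proliferating and embryonic cells, had 1.12, 1.598 and 1.87 CPM with RANKL, against 122, 121 and 106 CPM without it. Rnase4 had 1.65, 1.398 and 1.801 CPM with RANKL, against 269, 218 and 247 CPM without it and Ang, which encodes angiogenin, had 0.198, 0 and 0.485 CPM with RANKL, against 17.7, 18.3 and 19.5 CPM without it. The last 2 are ribonucleases whose genes share 115 exon bases on the same strand, so the split of reads between them is uncertain.

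The receptor and its adaptors rose on the whole. In the RANK signalling group, 15 of 27 tested members rose and 3 fell, with a median log2 fold change of 0.42. Tnfrsf11a, which encodes RANK itself, had 299, 273 and 293 CPM with M-CSF+RANKL, against 127, 139 and 107 CPM with M-CSF, a log2 fold change of 1.22 ± 0.11 (SE, adjusted p = 5.65e-07). Traf1, an adaptor induced by NF-kB, had 259, 317 and 248 CPM with RANKL, against 6.003, 7.03 and 7.15 CPM without it. The 2 treatments did not overlap for either gene. Birc3 and Birc2, ubiquitin ligases that restrain the alternative NF-kB pathway, rose by 2.18 and 1.44, and Tnfaip3, the NF-kB inhibitor A20, by 1.88. The stress kinases Mapk14 (p38 alpha) and Mapk9 (JNK2) fell, with log2 fold changes of -0.45 ± 0.09 and -0.82 ± 0.10.

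Most called members of the TNF family fell. Among TNF superfamily ligands and receptors, 3 of 23 tested members rose and 14 fell, with a median log2 fold change of -0.88. Tnfrsf9, the costimulatory receptor 4-1BB, was switched on with 21.8, 22.1 and 21.1 CPM with RANKL and 2 counts over the M-CSF libraries. Its ligand Tnfsf9 had 3.105, 3.86 and 5.96 CPM with M-CSF+RANKL, against 20.5, 22.2 and 20.2 CPM with M-CSF, so the receptor and the ligand went opposite ways. Cd40, the receptor for help from T cells, had 3.897, 4.13 and 5.89 CPM with RANKL, against 27.8, 25.1 and 21.4 CPM without it. Tnfsf12, the cytokine TWEAK, fell by 2.07 in log2.

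The transcription factors divided into a set that rose and a set that fell. Of the osteoclast transcription factor group, 12 of 27 tested members rose and 8 fell. Nfatc1 had 767, 799 and 749 CPM with M-CSF+RANKL, against 60.03, 62.1 and 57.01 CPM with M-CSF, a log2 fold change of 3.69 ± 0.12. Fosl2, an AP-1 subunit of the Fos family, had 712, 588 and 576 CPM with RANKL, against 33.96, 38.5 and 44.8 CPM without it, and Jdp2, an AP-1 partner needed for osteoclast formation, had 674, 940.0 and 733 CPM with RANKL, against 17.2, 20.8 and 20.5 CPM without it. All 3 had RANKL libraries well above every M-CSF library. Prdm1, the repressor Blimp1 that silences macrophage genes, rose by 5.42 ± 0.23, and Ppargc1b, a coactivator of mitochondrial genes, by 4.39 ± 0.29. Irf8, a macrophage factor that holds back osteoclast formation, had 31.8, 21.8 and 31.9 CPM with M-CSF+RANKL, against 174, 185 and 144 CPM with M-CSF. Rbpj, the DNA-binding factor of Notch signalling, fell by 2.07 in log2.

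Members of the ITAM group fell more often than they rose, while Oscar and the kinase Syk rose. For ITAM receptors and their kinases, 6 of 23 tested members rose and 12 fell, with a median log2 fold change of -0.28. Syk, the kinase that reads phosphorylated ITAMs, had 409, 363 and 376 CPM with M-CSF+RANKL, against 157, 168 and 172 CPM with M-CSF, and Lcp2, its downstream adaptor SLP-76, rose by 0.94. Trem2, a lipid-sensing receptor that signals through Tyrobp, had 43.3, 49.7 and 58.3 CPM with RANKL, against 427, 493 and 412 CPM without it. Siglec1, the sialic acid receptor of macrophages, had 2.58, 1.27 and 6.31 CPM with RANKL, against 128, 98.02 and 80.001 CPM without it. Both groups stood apart for these genes. Downstream, calcium signalling genes rarely rose: 3 of 26 tested members rose and 11 fell, with a median log2 fold change of -0.20. Those that rose were Atp2b4, a plasma membrane calcium pump, at 3.05 ± 0.29, Rcan1, a calcineurin inhibitor and NFAT target, at 2.61 ± 0.24, and Orai2, a store-operated channel, at 1.95 ± 0.11. Camk1, a calmodulin kinase, fell by 1.82 in log2.

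Cell fusion genes changed in both directions, with some large rises. Of these, 11 of 19 tested members rose and 6 fell, with a median log2 fold change of 1.91. Dcstamp and Ocstamp, membrane proteins required for fusion of osteoclasts, had 628, 701 and 626 CPM with M-CSF+RANKL, against 1.69, 3.06 and 2.53 CPM with M-CSF, and 416, 513 and 395 CPM with RANKL, against 0.375, 0.459 and 0.724 CPM without it. Itgb3, whose product with Itgav forms the integrin of the sealing zone, had 499, 478 and 531 CPM with RANKL, against 2.35, 0.994 and 1.90 CPM without it. No M-CSF library exceeded 5 CPM for these genes. Dock5, an activator of Rac in osteoclasts, had 467, 308 and 368 CPM with RANKL, against 19.7, 27.4 and 22.3 CPM without it, and Snx10, a sorting nexin needed for acid secretion, 707, 716 and 723 CPM with RANKL, against 85.2, 71.8 and 85.4 CPM without it. Cd36, a scavenger receptor with a part in macrophage fusion, went the other way with 33.9, 29.2 and 55.3 CPM with RANKL, against 1924, 1618 and 1625 CPM without it. Cd81, a tetraspanin, had 9.05, 10.9 and 18.6 CPM with RANKL, against 133, 137 and 161 CPM without it, and Cd200r1, the receptor of Cd200, fell by 2.43 in log2 while Cd200 was switched on.

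The cytoskeletal groups were mixed, and some related genes moved in opposite directions. Members were named from the largest changes in each direction, so such pairs follow in part from that rule. Of myosins, septins and tubulins, 8 of 25 tested members rose and 11 fell, with a median log2 fold change of -0.24, which was 0.04 without M-CSF+RANKL replicate 2. Myo1d, a class I membrane motor, had 523, 474 and 426 CPM with M-CSF+RANKL, against 2.63, 4.36 and 2.71 CPM with M-CSF. Tubb6, a beta tubulin picked out after its values were seen, had 1058, 1384 and 1088 CPM with RANKL, against 233, 289 and 297 CPM without it, whereas Tubb2a, another beta tubulin, had 30.7, 26.2 and 29.2 CPM with RANKL, against 212, 198 and 219 CPM without it. Neither tubulin had overlapping groups. Myo7a, an unconventional myosin, fell by 1.66 in log2. Rac2, the Rac of blood cells, had 1116, 1367 and 1119.5 CPM with RANKL, against 376, 399 and 466 CPM without it, Rhou, an atypical small GTPase, rose by 5.49 ± 0.28, and Dock2, an activator of Rac in leukocytes, had 112, 73.6 and 120.1 CPM with RANKL, against 306, 324 and 382 CPM without it. Of tetraspanins and adhesion molecules, 7 of 25 tested members rose and 7 fell, 28% each and near the shares of all tested genes. Tspan7 was switched on with 42.2, 43.6 and 42.7 CPM with RANKL, and Cd82 rose by 2.29 ± 0.14, while Cd53, a leukocyte tetraspanin, and Alcam, an adhesion molecule, fell by 1.39 and 1.57 in log2.

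Genes that move acid and its counter-ions changed in both directions. Of chloride, proton and bicarbonate transport genes, 8 of 17 tested members rose and 5 fell, with a median log2 fold change of 0.32. Car2, the carbonic anhydrase that makes the protons, had 329, 394 and 286 CPM with M-CSF+RANKL, against 0.0938, 0.153 and 0.271 CPM with M-CSF. Clcn7, the chloride channel of the ruffled border, had 541, 413 and 404 CPM with RANKL, against 73.1, 77.6 and 65.4 CPM without it. Slc4a2, the exchanger that removes bicarbonate, had 524, 422 and 418 CPM with RANKL, against 69.9, 83.9 and 61.4 CPM without it. The groups did not overlap for any of the 3 genes, as for 6693 of all 6875 called genes. Slc9b2, a sodium proton exchanger known from osteoclasts and picked out after its values were seen, had 643, 782 and 717 CPM with RANKL, against 2.35, 2.29 and 1.54 CPM without it. Of members that fell, Slc9a9, an endosomal exchanger, had 5.88, 4.06 and 7.55 CPM with RANKL, against 81.98, 58.3 and 100.4 CPM without it, and Clcn5, an endosomal chloride transporter, had 45.6, 32.7 and 44.4 CPM with RANKL, against 93.3, 85.9 and 109 CPM without it. Slc16a3, a lactate exporter, fell by 1.18 in log2.

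Membrane traffic genes showed no common direction. In the group of vesicle fusion and membrane traffic, 9 of 23 tested members rose and 10 fell, and 5 rose when M-CSF replicate 3 was left out. Rab38, a GTPase of lysosome-related organelles, had 58.99, 72.2 and 52.2 CPM with M-CSF+RANKL, against 1.13, 0.535 and 1.18 CPM with M-CSF. Its close relative Rab32 had 62.03, 58.99 and 74.6 CPM with RANKL, against 129, 159 and 168 CPM without it. The relatives moved in opposite directions, without overlap between the treatments. Lamp1 and Lamp2, the main lysosomal membrane proteins, fell by 1.98 and 2.14 in log2. Among sorting nexins as a symbol family, chosen after values were seen, 2 of 29 tested members rose and 15 fell. Snx2, a subunit of the retromer coat, had 197, 212 and 264 CPM with RANKL, against 1197, 966 and 1235 CPM without it, opposite to Snx10.

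Genes of mitochondrial energy metabolism rose more often than the background. Of citrate cycle enzymes, 21 of 24 tested members rose and 2 fell, with a median log2 fold change of 1.04. Mdh2, mitochondrial malate dehydrogenase, had 1151, 1423 and 1161 CPM with M-CSF+RANKL, against 376, 409 and 437 CPM with M-CSF. Every RANKL value of Mdh2 was above every M-CSF value. The members that fell were Idh1 and Me1, cytosolic enzymes that make NADPH, at -1.08 ± 0.17 and -1.89 ± 0.21. Among fatty acid oxidation genes, 12 of 19 tested members rose and 2 fell, with a median log2 fold change of 0.70. Acaa2, a thiolase of the last step, rose by 1.90 ± 0.13, and Etfdh, which passes electrons from acyl-CoA dehydrogenases to ubiquinone, by 1.48 ± 0.10. Cpt1a, which admits fatty acids to the mitochondrion, fell by 0.42 in log2.

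Genes for the build and upkeep of the mitochondrion did so too. Of import and quality control genes, 20 of 25 tested members rose and 0 fell, with a median log2 fold change of 0.81, and 1 fell under the replicate block or without M-CSF+RANKL replicate 2. Mfn2, which fuses mitochondria, had 186, 175 and 173 CPM with M-CSF+RANKL, against 73.4, 78.5 and 71.9 CPM with M-CSF. Of mitochondrial ribosomal proteins in the list, 16 of 28 tested members rose and 1 fell, with a median log2 fold change of 0.49. None fell without M-CSF+RANKL replicate 1, M-CSF+RANKL replicate 3 or M-CSF replicate 3. Mrps35 had 81.3, 112 and 85.98 CPM with RANKL, against 28.8, 28.6 and 28.1 CPM without it. Complex I subunits named Nduf, a family chosen after values were seen, gave the highest share of any family, and 32 of 36 tested members rose and 0 fell, with a median log2 fold change of 0.88. Ndufv1, the subunit that takes electrons from NADH, had 228, 262 and 215 CPM with RANKL, against 76.6, 83.4 and 79.7 CPM without it. Of genes of the mitochondrial genome, 6 of 10 tested members rose and 0 fell, with a median log2 fold change of 0.80. mt-Cytb, cytochrome b of complex III, had 7433, 7636 and 7998 CPM with M-CSF+RANKL, against 3439, 2733 and 4182 CPM with M-CSF. The mitochondrial genome took up 3.33 ± 0.331% of counts with RANKL and 1.99 ± 0.489% with M-CSF (SD, n = 3 each). By contrast only 4 of 77 tested cytosolic ribosomal protein genes were called in the female cultures, all 4 of them higher with RANKL. In the male cultures 21 of these genes rose and 0 fell. The sum in the female libraries was 39079, 55368 and 42511 CPM with RANKL, highest in replicate 2, and 36898, 42104.5 and 44844 CPM without it.

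Glycolysis did not follow. Of its genes, 5 of 21 tested members rose and 13 fell, with a median log2 fold change of -0.35. The number that fell was 8 when M-CSF replicate 2 was left out, and the number that rose was 3 without M-CSF replicate 1, M-CSF replicate 3 or M-CSF+RANKL replicate 2. Hk3, a hexokinase of myeloid cells, had 84.4, 84.8 and 108 CPM with M-CSF+RANKL, against 464, 421 and 442 CPM with M-CSF. Pfkl, a phosphofructokinase, had 67.4, 70.6 and 79.7 CPM with RANKL, against 122, 176 and 134 CPM without it. Ldhb, the lactate dehydrogenase subunit that favours use of lactate, had 87.0, 117 and 79.1 CPM with RANKL, against 4.22, 2.52 and 2.35 CPM without it. Ldhb was at most a few CPM in each M-CSF library and rose, whereas the other two fell. Several creatine genes rose with Ckb. Of creatine and energy buffering genes, 7 of 11 tested members rose and 3 fell, with a median log2 fold change of 1.01. Slc6a8, the creatine transporter, had 334, 349.5 and 295 CPM with RANKL, against 88.8, 96.6 and 54.9 CPM without it. Ckmt1, a mitochondrial creatine kinase, had 10.1, 11.9 and 9.01 CPM with RANKL and no count with M-CSF. Gatm and Gamt, the enzymes that make creatine, fell, with Gatm at 6.94, 5.13 and 6.72 CPM with RANKL, against 74.9, 54.1 and 59.0 CPM without it and Gamt at -1.13 ± 0.21 in log2.

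**Figure D5:**
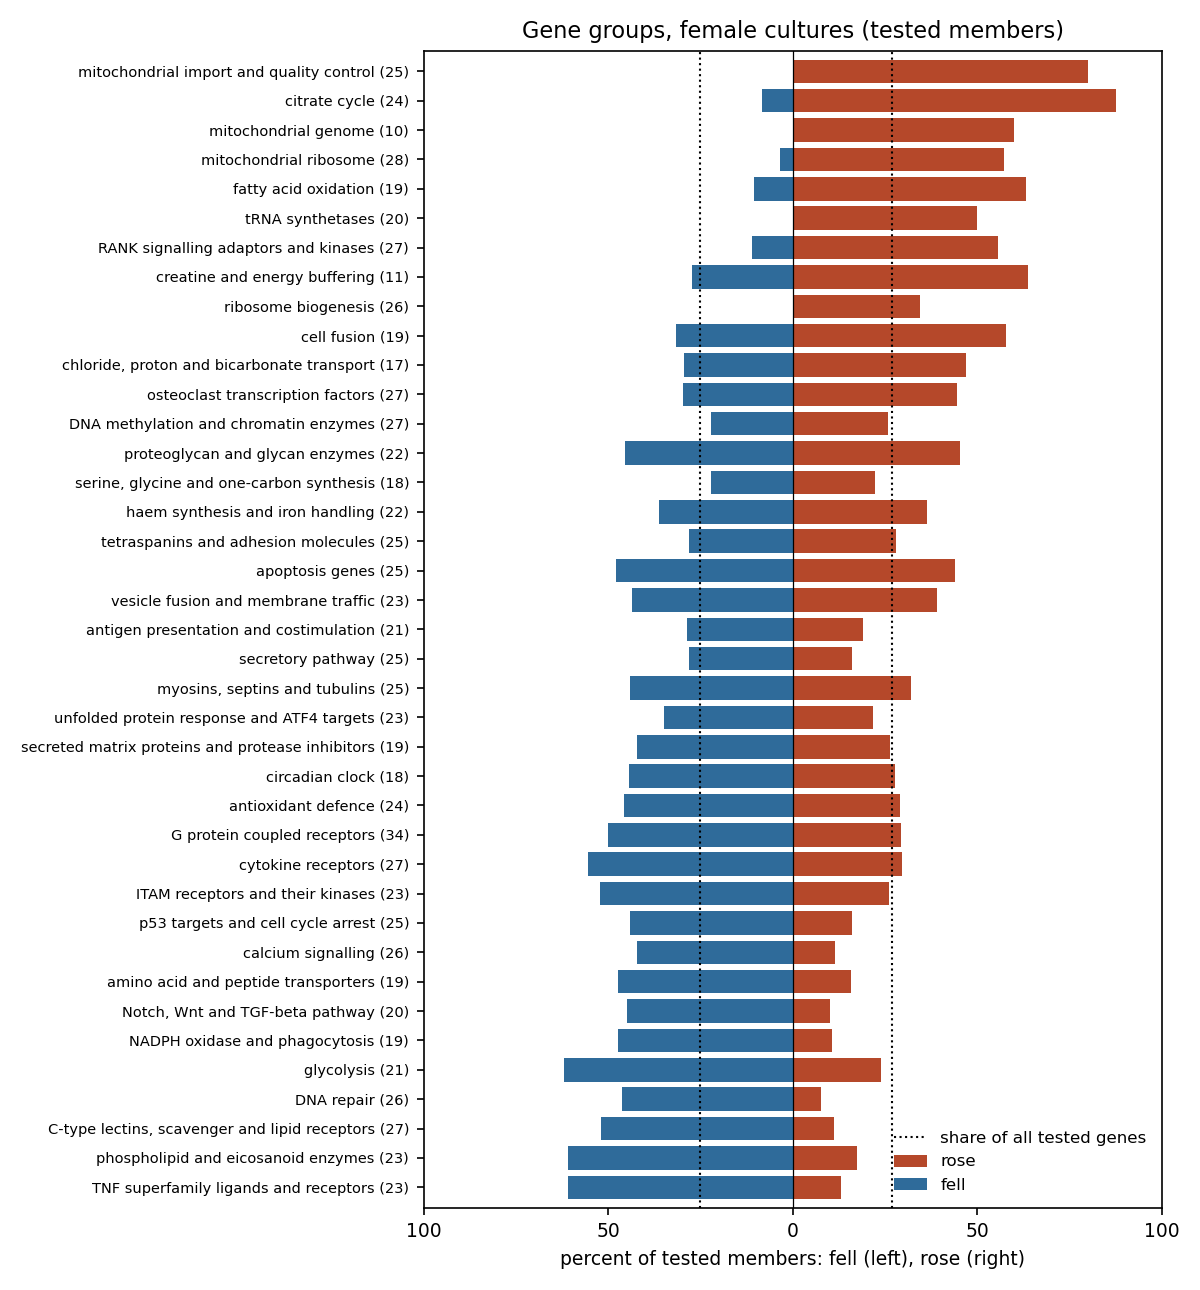
Percent of the tested members of each gene group shown that rose (red, right) and fell (blue, left) with RANKL; numbers in brackets are tested members, and dotted lines are the shares of all tested genes, 26.8% and 25.1%. Citrate cycle (21 of 24 rose) and mitochondrial import (20 of 25 rose) stand at the top, and C-type lectins, TNF superfamily and eicosanoid enzymes near the bottom.

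The iron uptake genes Tfrc and Slc11a2 rose, while the storage gene Fth1 and the exporter gene Slc40a1 fell. Of haem and iron genes, 8 of 22 tested members rose and 8 fell, with a median log2 fold change of 0.12. Their summed level was 7129, 8187 and 7288 CPM with RANKL and 20158, 21486 and 19490 CPM with M-CSF. These sums differed mostly through Fth1, whose values are given above. Tfrc, the transferrin receptor, had 1588, 712 and 1061 CPM with M-CSF+RANKL, against 285, 197 and 213 CPM with M-CSF. Slc11a2, which carries iron out of endosomes, had 149, 132 and 136 CPM with RANKL, against 46.2, 45.9 and 36.5 CPM without it. Slc40a1, the iron exporter ferroportin, had 5.55, 4.66 and 5.61 CPM with RANKL, against 160.5, 90.1 and 195 CPM without it. The treatments did not overlap for any of these, although Tfrc varied by more than 2-fold among the RANKL libraries. Hmox1, which breaks down haem, had 107, 120.4 and 118 CPM with RANKL, against 1010.4, 1073 and 874 CPM without it, and Slc11a1, a metal transporter of phagosomes, fell by 2.60 in log2. Slc25a39, a mitochondrial carrier, rose by 1.44 ± 0.15.

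More antioxidant genes fell than rose. Of these, 7 of 24 tested members rose and 11 fell, with a median log2 fold change of -0.33. Prdx1, a peroxiredoxin, had 719.8, 880.3 and 928 CPM with M-CSF+RANKL, against 2830.0, 2394 and 3143 CPM with M-CSF. Gclm, a subunit of the enzyme that starts glutathione synthesis, had 105, 140.4 and 138 CPM with RANKL, against 385, 411 and 414 CPM without it, and Cat, catalase, 207, 224 and 232 CPM with RANKL, against 694, 561 and 466 CPM without it. Their groups stood apart. Gsr, glutathione reductase, and Gss, glutathione synthetase, rose by 0.71 ± 0.14 and 0.79 ± 0.15. NADPH oxidase and phagocytosis genes fell more often than the background, and 2 of 19 tested members rose and 9 fell, with a median log2 fold change of -0.61. Ncf1, a cytosolic oxidase subunit, had 51.3, 45.1 and 78.2 CPM with RANKL, against 276, 277 and 306 CPM without it, and Mpeg1, a pore-forming protein of phagosomes, 389, 254 and 491 CPM with RANKL, against 2023, 1836 and 1864 CPM without it. Ncf4, another subunit, went up by 1.12 ± 0.12.

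Genes for making protein moved in both directions. Of tRNA synthetases, 10 of 20 tested members rose and 0 fell, with a median log2 fold change of 0.27. Nars and Gars, which charge the tRNAs of asparagine and glycine, rose by 0.87 ± 0.13 and 0.84 ± 0.10. Of ribosome biogenesis genes, 9 of 26 tested members rose and 0 fell, with a median log2 fold change of 0.25, and 5 rose without M-CSF replicate 1, M-CSF replicate 3 or M-CSF+RANKL replicate 2. For the unfolded protein response, 5 of 23 tested members rose and 8 fell, and 2 rose without M-CSF replicate 2 or M-CSF+RANKL replicate 1. With the replicate number as a block 8 rose and 10 fell. Pdia6 and Pdia4, which form disulfide bonds in new proteins, had 359, 421 and 403 CPM with M-CSF+RANKL, against 869.8, 825 and 943 CPM with M-CSF, and 167, 185 and 179 CPM with RANKL, against 330.5, 328 and 305 CPM without it. Both lay lower in every RANKL library. Ern1, the stress sensor IRE1, rose by 0.86 ± 0.18. Of amino acid and peptide transporters, 3 of 19 tested members rose and 9 fell, with a median log2 fold change of -0.41. Slc1a5, a glutamine transporter, had 460.1, 498 and 434 CPM with RANKL, against 98.4, 125 and 121 CPM without it, and Slc7a8, an exchanger of neutral amino acids, 54.6, 51.3 and 80.8 CPM with RANKL, against 359, 590.4 and 398 CPM without it. Of the secretory pathway, 4 of 25 tested members rose and 7 fell, and 2 fell without M-CSF replicate 3 and 4 without M-CSF+RANKL replicate 2 or 3.

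Chromatin genes as a group rose and fell about as often as all tested genes. Of DNA methylation and chromatin enzymes, 7 of 27 tested members rose (25.9%) and 6 fell (22.2%), against 26.8% and 25.1% of all tested genes. The median log2 fold change was 0.12. Dnmt3a, which sets new DNA methylation, had 782, 535 and 512 CPM with M-CSF+RANKL, against 100.3, 88.8 and 99.3 CPM with M-CSF, and the maintenance enzyme Dnmt1 and its partner Uhrf1 fell by 0.55 and 0.86 in log2. Kdm5b, a histone H3K4 demethylase, had 59.5, 46.7 and 50.02 CPM with RANKL, against 6.75, 9.48 and 6.52 CPM without it. Hdac9, a class II histone deacetylase, had 4.23, 2.53 and 5.196 CPM with RANKL, against 44.9, 39.9 and 45.6 CPM without it. The treatments did not overlap for these. Dot1l, the H3K79 methyltransferase, rose by 1.44 ± 0.19.

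More DNA repair genes fell than rose. Of this group, 2 of 26 tested members rose and 12 fell, with a median log2 fold change of -0.41, and 1 rose without M-CSF+RANKL replicate 1, M-CSF+RANKL replicate 3, M-CSF replicate 2 or M-CSF replicate 3. Lig1, a ligase of replication, had 80.1, 83.4 and 90.7 CPM with M-CSF+RANKL, against 164, 199 and 191 CPM with M-CSF. Xrcc5, which encodes Ku80, was the largest exception with 14.7, 13.7 and 8.52 CPM with RANKL, against 1.13, 1.45 and 1.09 CPM without it. Every Xrcc5 value with RANKL was above every value without it. Of p53 targets and genes of cell cycle arrest, a list that also holds cyclins, 4 of 25 tested members rose and 11 fell, with a median log2 fold change of -0.66, with 7 that rose and 15 that fell under the replicate block. Ccnd1, cyclin D1, had 84.9, 67.7 and 113 CPM with RANKL, against 406, 472 and 408 CPM without it. Cdkn1a, the cell cycle inhibitor p21, had 54.4, 61.5 and 58.8 CPM with RANKL, against 213, 249 and 181 CPM without it, whereas Cdkn1b, the inhibitor p27, had 49.4, 39.3 and 39.7 CPM with RANKL, against 27.1, 21.8 and 15.6 CPM without it. The inhibitors moved in opposite directions. Of apoptosis genes, 11 of 25 tested members rose and 12 fell, with a median log2 fold change of -0.23. Bcl2l1, the survival protein Bcl-xL, had 14.5, 18.4 and 20.4 CPM with RANKL, against 173, 173 and 186 CPM without it, and Bcl2 fell by 1.79 in log2. Bmf and Pmaip1, proteins that promote cell death, rose by 2.49 ± 0.25 and 2.04 ± 0.21.

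Of the clock genes, 5 of 18 tested members rose and 8 fell, with a median log2 fold change of -0.43. The largest changes were in a pair of related repressors, Bhlhe40 with 296, 318 and 273 CPM with M-CSF+RANKL, against 7.41, 12.5 and 14.5 CPM with M-CSF, and Bhlhe41 with 0.925, 1.198 and 1.11 CPM with RANKL, against 42.5, 32.6 and 32.4 CPM without it. The pair moved in opposite directions with no overlap.

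Receptors for outside signals fell more often than they rose. Of G protein coupled receptors, 10 of 34 tested members rose and 17 fell, with a median log2 fold change of -0.73. Ccr1, a chemokine receptor, had 485, 553 and 584 CPM with M-CSF+RANKL, against 45.5, 39.5 and 111 CPM with M-CSF. C5ar1 and C3ar1, receptors for complement peptides, had 63.4, 64.98 and 119 CPM with RANKL, against 1001, 1061 and 929 CPM without it, and 74.5, 67.4 and 106 CPM with RANKL, against 926, 850.3 and 677 CPM without it. S1pr1, a receptor for sphingosine 1-phosphate that guides precursors between blood and bone, had 1.06, 0.932 and 1.39 CPM with RANKL, against 34.6, 22.9 and 31.04 CPM without it. The rise of Ccr1 and the falls of the others were each without overlap. P2ry14, a receptor for UDP-sugars, rose by 3.90 ± 0.29, and P2ry12, a receptor for ADP, fell by 4.07 in log2. Of cytokine receptors, 8 of 27 tested members rose and 15 fell, with a median log2 fold change of -0.55. Il1r1, the interleukin 1 receptor, had 8.52, 5.79 and 5.61 CPM with RANKL and 2 counts with M-CSF, and Il1rn, the antagonist that blocks it, had 106, 131 and 131 CPM with RANKL, against 27.5, 27.9 and 20.5 CPM without it. Tgfbr1, a TGF-beta receptor, had 455, 282 and 378 CPM with RANKL, against 50.8, 40.2 and 48.1 CPM without it. Il21r and Il4ra, which respond to T cell cytokines, fell by 2.57 and 1.23 in log2.

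Of C-type lectins, scavenger and lipid receptors, 3 of 27 tested members rose and 14 fell, with a median log2 fold change of -0.61, and 8 rose under the replicate block. Stab1, a scavenger receptor of macrophages, had 55.4, 36.6 and 104 CPM with M-CSF+RANKL, against 2082, 1839 and 1915 CPM with M-CSF. Clec4a2, an inhibitory lectin, went against the group with 262, 319 and 271 CPM with RANKL, against 86.8, 86.4 and 93.6 CPM without it. Neither gene had overlapping groups. Of antigen presentation and costimulation genes, 4 of 21 tested members rose and 6 fell. The number that rose was 2 without M-CSF replicate 3 or M-CSF+RANKL replicate 3, and 7 without M-CSF+RANKL replicate 1. Cd274, the inhibitory ligand PD-L1, had 40.5, 36.1 and 28.8 CPM with RANKL, against 9.29, 8.104 and 7.33 CPM without it, and Icosl, a costimulatory ligand, 3.57, 2.93 and 5.47 CPM with RANKL, against 30.5, 32.4 and 41.99 CPM without it. Of phospholipid and eicosanoid enzymes, 4 of 23 tested members rose and 14 fell, with a median log2 fold change of -0.65. Alox5ap, needed to make leukotrienes, had 26.6, 29.8 and 37.8 CPM with RANKL, against 198, 222 and 205 CPM without it, and Hpgds, a prostaglandin D synthase, 31.9, 24.4 and 29.2 CPM with RANKL, against 195, 125 and 156 CPM without it. Ptges, a prostaglandin E synthase, rose by 1.80 ± 0.18.

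Of secreted matrix proteins and protease inhibitors, 5 of 19 tested members rose and 8 fell, with 8 and 9 under the replicate block. Their summed level was 5434, 6304 and 6138 CPM with RANKL and 15629, 14206 and 14330 CPM without it, mostly through Spp1 and Lgals1 as above. Vcan, the proteoglycan versican, had 273, 113 and 222 CPM with M-CSF+RANKL, against 61.7, 46.4 and 95.1 CPM with M-CSF, and Cstb, an inhibitor of cathepsins, 754, 1048 and 797 CPM with RANKL, against 351, 367 and 402 CPM without it. Enzymes that build and trim glycans changed strongly in both directions, and 10 of 22 tested members rose and 10 fell. Chst11, a chondroitin sulfotransferase, had 127, 114 and 117 CPM with RANKL, against 5.53, 5.12 and 6.88 CPM without it, and Ext1, which builds heparan sulfate, 360.3, 372 and 343 CPM with RANKL, against 28.2, 25.001 and 33.2 CPM without it. Chst3, another chondroitin sulfotransferase, had 0.462, 0.1997 and 0.208 CPM with RANKL, against 13.3, 23.3 and 13.8 CPM without it. So chondroitin sulfotransferases changed in both directions. Sdc1 and Sdc3, proteoglycans of the cell surface, went apart as well, at 4.55 ± 0.23 and -2.31 ± 0.23. Of Notch, Wnt and TGF-beta genes, 2 of 20 tested members rose and 9 fell, with a median log2 fold change of -0.35. Fzd7, a Wnt receptor, fell by 2.13 in log2.

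Replicates of a group were close but not alike. The median absolute deviation of a library from its group mean was 0.0818 to 0.147 in log2 CPM among the M-CSF+RANKL libraries, highest in replicate 2, and 0.0902 to 0.0916 among the M-CSF libraries. Tfrc and Dab2 were among the genes that varied by more than 2-fold among the RANKL libraries.

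The response of the male cultures was set beside it. These 6 libraries came from precursors of male Runx1 fl/+ mice, 3 with M-CSF and the same dose of RANKL and 3 with M-CSF alone. Of 13236 genes, 6875 were called in females and 7276 (55%) in males, and the female calls included 3229 rises and 3010 falls that were also called in males in the same direction, and 0 called in the opposite direction. The log2 fold change of Ckb was 2.47 ± 0.13 in females and 2.72 ± 0.13 in males, that of Fth1 -1.97 ± 0.14 in females and -2.04 ± 0.14 in males, and that of Dnmt3a 2.66 ± 0.18 in females and 2.50 ± 0.18 in males. Of citrate cycle enzymes, 21 rose and 2 fell in female cultures, and 22 rose and 2 fell in male cultures. Of TNF superfamily genes, 3 rose and 14 fell in female cultures, and 4 rose and 14 fell in male cultures. The difference of the responses, female minus male, was tested in the same fit, which had no replicate block. With edgeR 0 genes passed, with 260 at an unadjusted p below 0.05. With the replicate number as a block 0 passed as well, with 658 at an unadjusted p below 0.05. DESeq2 also called 0, with 225 at an unadjusted p below 0.05. The 95% interval of the difference lay within ±1 in log2 for 9003 genes, and for the other tested genes the interval reached a difference of 2-fold or more in at least 1 direction. The authors' deposited table for the female comparison held 10255 genes, of which 5736 passed 0.05. Of those, 5609 were called here in the same direction.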

How the data were processed

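The read counts used cover 23863 genes and were deposited by the authors as whole numbers. A second table, of the authors' comparisons, has log2 fold changes with p-values as deposited, and is quoted only by that name. Tools listed by the submitters' processing notes are STAR 2.7.3a and fastp, with edgeR for statistics and mm10 as build. Which program counted the reads, with which annotation and strand setting, is not given in the sources used. Per the labels' protocols, libraries were made from poly(A) RNA with a stranded kit. Of the 452 genes that were listed for naming, 82 share at least 50 exon bases with another counted gene, and their counts are uncertain.

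From the counts, edgeR 4.0.16 in R 4.3.3 fitted all 12 libraries in 1 quasi-likelihood model of the 4 groups, after filterByExpr with a minimum count of 10 (13236 genes) and TMM scaling. A gene was called at a p below 0.05 after Benjamini-Hochberg adjustment. Levels are CPM at the TMM-scaled library size, and SE is that of the log2 fold change. Lower bounds set a group without counts to 3 counts, ratios against 1 to 3 counts carry an exact 95% counting interval, and both cover counting error only. DESeq2 1.42.0 served in the alternatives, beside further edgeR fits. The packages limma 3.58.1 and data.table, version 1.17.8, were loaded, and no limma model was fitted as an alternative. The fit was also run on simulated data, with changes planted in a small part of the genes and each library drawn independently. That setting does not cover a response as wide as this one, or correlation between libraries with the same replicate number.

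Named genes are the 20 largest rises and 20 largest falls and the 10 largest gains and losses of CPM, among called genes whose libraries did not overlap and whose higher group had 5 CPM or more. To these come 15 switched on or off, 10 unchanged genes that are not called, and up to 4 called members in each direction from each of 40 lists, printed where the higher group had 5 CPM or more. 11 marker lists and 26 symbol families were added. The members, lists and tests were chosen with earlier results of these data known, the families and 40 further genes after values were seen, and not every gene of the rule is printed; a few genes and 1 gene list are not reported here. Deviations from the female group means over 8999 genes were correlated between M-CSF+RANKL and M-CSF libraries. The values were 0.43, 0.39 and 0.31 where the replicate numbers were equal, and -0.32 to -0.02 where they differed. Deviations from a mean of 3 libraries sum to 0 for each gene. Positive values for equal numbers therefore push the others down, and the negative values are not separate evidence of pairing. The labels do not say what the number stands for. No 2 libraries of a group agreed within sampling noise. The count table left 0 columns without a sample.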

Additional observations from a re-analysis of the deposited data

How the results depend on the processing

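The number of genes called in females was 6880 with RLE scaling, 6831 with upper-quartile scaling, 6938 with DESeq2, 6936 without the filter, 5736 among the authors' 10255 filtered genes and 6355 with the 6 female libraries alone. With the replicate block, 8014 genes were called (4133 rose and 3881 fell), 6866 of the 6875 calls among them, and with the female libraries alone and the block 7134. Leaving out 1 library each gave 6231 to 6573 calls, lost 638 to 781 of the calls and changed the sign of 0. The scaling alternatives moved the median of all genes by at most 0.02 in log2. Of the list counts given above, the blocked values stand beside them where they moved by over 1.5 times. Serine and one-carbon genes, with 4 of 18 that rose, had 7 under the block and 2 without M-CSF replicate 1 or among the authors' filtered genes. Under the block 9 calls were lost. The difference of the responses had 0 calls under every setting, with 658 genes at an unadjusted p below 0.05 under the block, and the male response, whose alternatives were chosen after seeing the data, had 6008 to 8356 calls. The genes switched on numbered 113 with at most 10 counts in M-CSF and 217 with at least 1 CPM with RANKL, and those switched off 3 and 11; the cause was not tested. Of 419 named genes with alternatives, 365 kept direction and side of the threshold under all of them, 0 changed sign with a call on either side, and 18 changed sign without a call. Depth limits the lowest genes: below 3 counts over a group a fold is only a bound or an interval.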

Other observations

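Most tested histone genes rose, while most E2F factors and kinesins fell. Poly(A) selection captures histone transcripts poorly, and 13 of 50 genes named Hist passed the filter on low counts, of which 11 rose and 0 fell with a median log2 fold change of 2.47. Hist1h2bc, which encodes an H2B histone, had 56.5, 57.8 and 44.1 CPM with M-CSF+RANKL, against 8.07, 7.798 and 6.88 CPM with M-CSF. Hist2h2be, another H2B gene, had 46.4, 33.2 and 25.4 CPM with RANKL, against 7.32, 5.35 and 6.33 CPM without it, and Hist1h1c, a linker histone, 70.9, 68.4 and 58.6 CPM with RANKL, against 24.1, 29.1 and 28.5 CPM without it. Every RANKL library lay above every M-CSF library for these 3 genes, which were chosen after their values were seen. H3f3b, which encodes the replacement histone H3.3, went the other way with a log2 fold change of -0.55 ± 0.11. Of 8 E2F factors, which control entry into DNA synthesis, 0 rose and 6 fell, and E2f2 had 21.4, 16.3 and 21.8 CPM with RANKL, against 65.6, 79.9 and 74.7 CPM without it. Of 29 tested kinesins, motors that include those of the mitotic spindle, 3 rose and 19 fell.

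Long noncoding RNAs rose about as often as all tested genes did, with 82 of 278 tested lincRNAs (29.5%) that rose and 52 (18.7%) that fell. Firre, an X-linked noncoding RNA that shapes nuclear organisation, had 165, 125 and 177 CPM with M-CSF+RANKL, against 13.6, 17.4 and 14.9 CPM with M-CSF, and a log2 fold change of 3.34 ± 0.22. 4833415N18Rik, annotated as a lincRNA on chromosome 16, had 49.01, 54.3 and 38.9 CPM with RANKL and 1 count in M-CSF as a whole, giving a ratio of 1652 (95% counting interval 296 to 65300.1). Of other genes picked out after their values were seen, Mmp14, a membrane-bound metalloproteinase, had 803, 778 and 599 CPM with RANKL, against 1.78, 2.91 and 1.18 CPM without it, and Cyp2s1, a cytochrome P450, 119.6, 141 and 103 CPM with RANKL, against 3.38, 2.06 and 0.271 CPM without it. Nrp2 and Plxnd1, a neuropilin and a plexin that act in semaphorin signalling, had 2016, 1666 and 1943 CPM with RANKL, against 331, 353 and 368 CPM without it, and 873, 772 and 827 CPM with RANKL, against 163, 165 and 178 CPM without it. Dusp6 and Dusp4, phosphatases that switch off MAP kinases, went apart at -1.88 ± 0.11 and 1.54 ± 0.21. No value of the one treatment reached the range of the other in these genes.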
